A study of Homo sapiens
Mus musculus with 2 samples.

Results

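The expression of 7 mouse genes was examined in single cells profiled by Drop-seq, a droplet method that tags the transcripts of each cell with the barcode of a bead and counts their 3′ ends. The genes were 4 transcription factors of the T lineage and 3 genes of the Notch pathway, out of 14740 mouse genes and 29259 genes in all. They were taken as a fixed list of identifiers, and all 7 were found in the count tables. Tcf7 is mm10_ENSMUSG00000000782, Lef1 is mm10_ENSMUSG00000027985, Gata3 is mm10_ENSMUSG00000015619 and Bcl11b is mm10_ENSMUSG00000048251. Notch1 is mm10_ENSMUSG00000026923, Hes1 is mm10_ENSMUSG00000022528 and Dtx1 is mm10_ENSMUSG00000029603. The tables hold identifiers only, so the symbols are those of the list.

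The study pooled 4 lymphocyte cell lines in equal parts. The mouse lines were EL4, of CD4+ T cells, and IVA12, of B cells, and the human lines were Jurkat (CD4+) and TALL-104 (CD8+), both of T cells. All 4 lines went into both libraries, the labels name no treatment, and the lines are established ones and not primary lymphocytes. Whether separate cultures fed the libraries is not stated in the labels. Cells were loaded at 150 cells per µl for 1 library, here called the 150 library, and at 300 for the other, the 300 library. Neither loading had a replicate, and pairs of values below give the 150 library first. A unique molecular identifier (UMI) allows copies of 1 molecule to be counted once.

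T cell progenitors in the thymus receive Notch signals through the receptor Notch1. Once cleaved, its intracellular part activates target genes, among them Hes1, a transcriptional repressor, and Dtx1, which encodes a ubiquitin ligase of the Deltex family. Notch signalling also induces Tcf7, which encodes TCF1. TCF1 and its relative LEF1 bind DNA through a high mobility group domain and can recruit β-catenin, GATA3 is a zinc finger factor needed for early T cell development and CD4 T cell fate, and BCL11B secures commitment to the T lineage.

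Mouse cells were the barcodes with at least 1000 UMIs of which at least 90% were from mouse genes. There were 85 of them in the 150 library and 685 in the 300 library. Clustering without the 7 genes divided them into 6 clusters, which were joined into 2 classes. Summed profiles correlated at 0.88 to 0.98 within a class and at 0.68 to 0.73 between classes. Mouse A, the larger class, held 50 and 389 cells and mouse B held 35 and 296 cells. Median depth was 10882 and 7509 UMIs per cell in mouse A, against 13629 and 6566.5 in mouse B. The T and B cell markers fixed for naming the classes could not be applied to identifiers without symbols, and neither class is therefore given the name of a cell line. The libraries shared 1 barcode sequence and 0 cells. Clusters 5 (mouse B) and 6 (mouse A) were shallow, with medians of 1305 to 1613 UMIs, and held 133 of the 770 mouse cells.

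The 2 sets of genes occupied opposite classes. The 4 transcription factors were found mainly in mouse A, and Notch1 and Hes1 mainly in mouse B, in both libraries. Dtx1 was found mainly in mouse B in the 300 library, and in the 150 library it was below the limit in both classes. Of the 7 genes, 6 passed the filter on low counts, and all 6 passed the test between the classes. A gene could pass the filter through the class where it was high, so this count is a description. Tcf7, Lef1, Gata3 and Bcl11b were higher in mouse A, as were 29.2% of all mouse genes tested. Notch1 and Hes1 were higher in mouse B, as were 27.7% of all mouse genes tested. The test was edgeR's quasi-likelihood test on 4 sums of UMIs, 1 per library and class, with the library as a block and Benjamini-Hochberg adjustment over 8927 genes. Both libraries came from the same lines, so its p-values reach no further than these 2 libraries. With only 4 sums, the spread of each gene was estimated partly from the other genes. Very small p-values are therefore not a measure of the spread between libraries. For Tcf7 the adjusted p was 8.64e-08 in edgeR without the library block and 4.99e-06 in the tool DESeq2. For Hes1 it was 7.82e-05 in edgeR without the block and 0.047 in DESeq2. Dtx1 had too few UMIs to pass the filter and has no test under it.

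**Figure D1:**
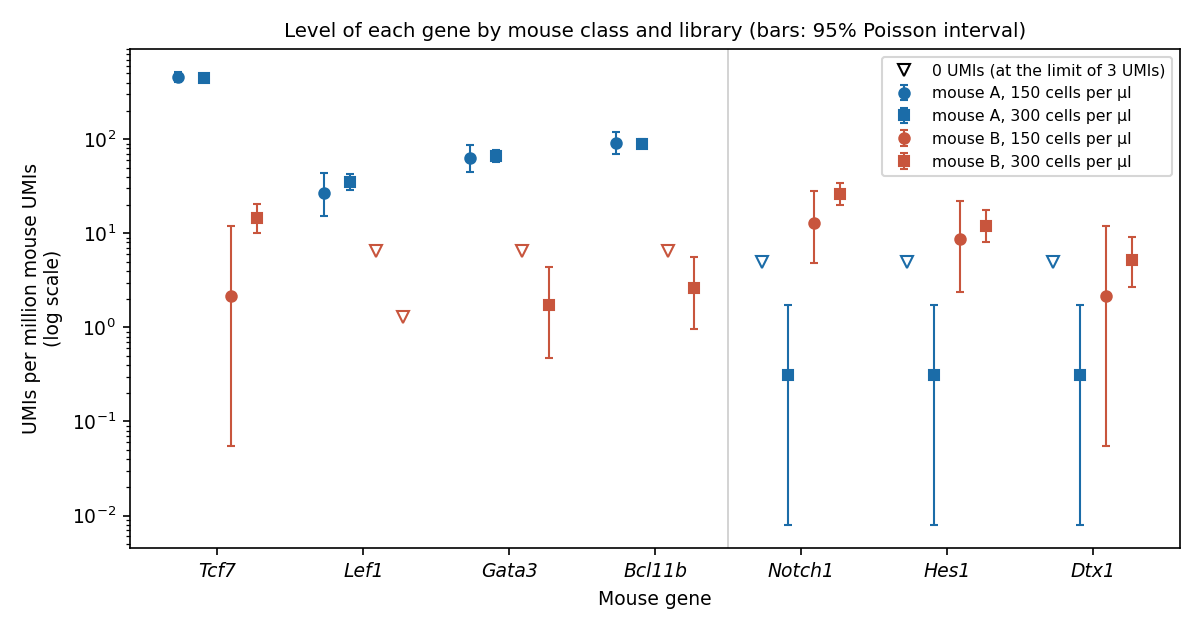
Level of each gene, in UMIs per 1000000 mouse UMIs on a log scale, in the cells of each mouse class and library. Points are sums over cells, bars are 95% Poisson intervals, and open triangles mark 0 UMIs and stand at the level that 3 UMIs would give. The 4 factors on the left are highest in mouse A, and the 3 Notch genes on the right are higher in mouse B, except that Dtx1 in the 150 library, with 1 UMI in mouse B and 0 in mouse A, lies below the limit in both.

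Levels are given as UMIs per 1000000 mouse UMIs (CPM), summed over the cells of a class within a library. Each transcript is counted once at its 3′ end, so no division by length was made and levels are not ranked between genes. The intervals are 95% Poisson or binomial intervals and cover counting error only.

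Tcf7 was the most deeply counted of the 7 genes. Mouse A had 277 UMIs in the 150 library, or 462 CPM (409 to 520), and 1442 UMIs in the 300 library, or 450.3 CPM (427 to 474). Mouse B had 1 UMI (2.17 CPM, 0.055 to 12.1) and 34 UMIs (14.7 CPM, 10.2 to 20.5). Both libraries thus gave mouse A nearly equal levels, and no level of mouse B reached them. The ratio of mouse A to mouse B was 30.6 in the 300 library (21.8 to 44.4), whereas the single UMI in the 150 library left it at 213 with an interval of 37.9 to 8429. The fitted log2 fold change of mouse B over mouse A was -5.22 (edgeR, adjusted p = 5.11e-157). Among the 4586 genes with lower levels in mouse B, 151 had a larger fitted fold change. They include genes with 0 UMIs in mouse B, such as Lef1, whose fitted values are not a measure of size.

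Lef1, the closest relative of Tcf7 in the list, was not counted in mouse B at all. It had 16 UMIs (26.7 CPM, 15.2 to 43.3) and 113 UMIs (35.3 CPM, 29.1 to 42.4) in mouse A. In mouse B it had 0 UMIs in 35 cells and 0 UMIs in 296 cells, which allows up to 6.51 and 1.30 CPM if 3 UMIs are taken as the limit. Against those limits, Lef1 was at least 4.09-fold and at least 27.2-fold higher in mouse A. The adjusted p was 2.55e-22 in edgeR but 0.21 in DESeq2, so the call for Lef1 depends on the tool. The fitted fold change of a gene at 0 in a class depends on the prior count and is not a measure of size.

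Gata3 had 38 UMIs (63.4 CPM, 44.8 to 87) and 213 UMIs (66.5 CPM, 57.9 to 76.1) in mouse A. Mouse B had 0 UMIs, with a limit of 6.51 CPM, and 4 UMIs (1.73 CPM, 0.47 to 4.43). Gata3 was at least 9.72-fold higher in mouse A in the 150 library and 38.5-fold higher (14.8 to 142) in the 300 library. Its log2 fold change was -5.48 (edgeR, adjusted p = 2.48e-37).

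Bcl11b followed the same order. Mouse A had 55 UMIs (91.7 CPM, 69.1 to 119) and 288 UMIs (89.9 CPM, 79.8 to 101), and mouse B had 0 UMIs and 6 UMIs (2.59 CPM, 0.95 to 5.65). The ratio was at least 14.1 in the 150 library and 34.7 (15.7 to 95.3) in the 300 library, and the log2 fold change was -5.37 (edgeR, adjusted p = 4.09e-47). For each of the 4 factors, the intervals of mouse A and mouse B did not overlap in either library.

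The receptor gene Notch1 had the opposite distribution. Mouse B had 6 UMIs (13 CPM, 4.78 to 28.4) and 61 UMIs (26.4 CPM, 20.2 to 33.9). Mouse A had 0 UMIs in 50 cells, with a limit of 5.0 CPM, and 1 UMI in 389 cells (0.31 CPM, 0.0079 to 1.74). Notch1 was at least 2.61-fold higher in mouse B in the 150 library and 84.4-fold higher (14.6 to 3389) in the 300 library, where the upper bound rests on that 1 UMI. The intervals of the classes overlapped in the 150 library only. The log2 fold change was 6.14 (edgeR, adjusted p = 1.90e-15).

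Hes1, a target of Notch signalling, was counted in the same class as the receptor. It had 4 UMIs (8.69 CPM, 2.37 to 22.2) and 28 UMIs (12.1 CPM, 8.04 to 17.5) in mouse B, against 0 UMIs and 1 UMI in mouse A. It was at least 1.74-fold higher in mouse B in the 150 library, where the intervals overlapped, and 38.8-fold higher (6.41 to 1585) in the 300 library. The log2 fold change was 5.08 (edgeR, adjusted p = 3.42e-07).

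Dtx1 had 1 UMI and 12 UMIs in mouse B, or 2.17 CPM (0.055 to 12.1) and 5.19 CPM (2.68 to 9.06), and 0 UMIs and 1 UMI in mouse A. No ratio is given in the 150 library, where both classes were below the limit, and the ratio of mouse B to mouse A was 16.6 (2.46 to 710.1) in the 300 library. When genes were tested without a filter on low counts, the adjusted p for Dtx1 was 0.022 (edgeR, log2 fold change 3.89). Without the filter the median of all genes shifted to 0.16 on the log2 scale.

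**Figure D2:**
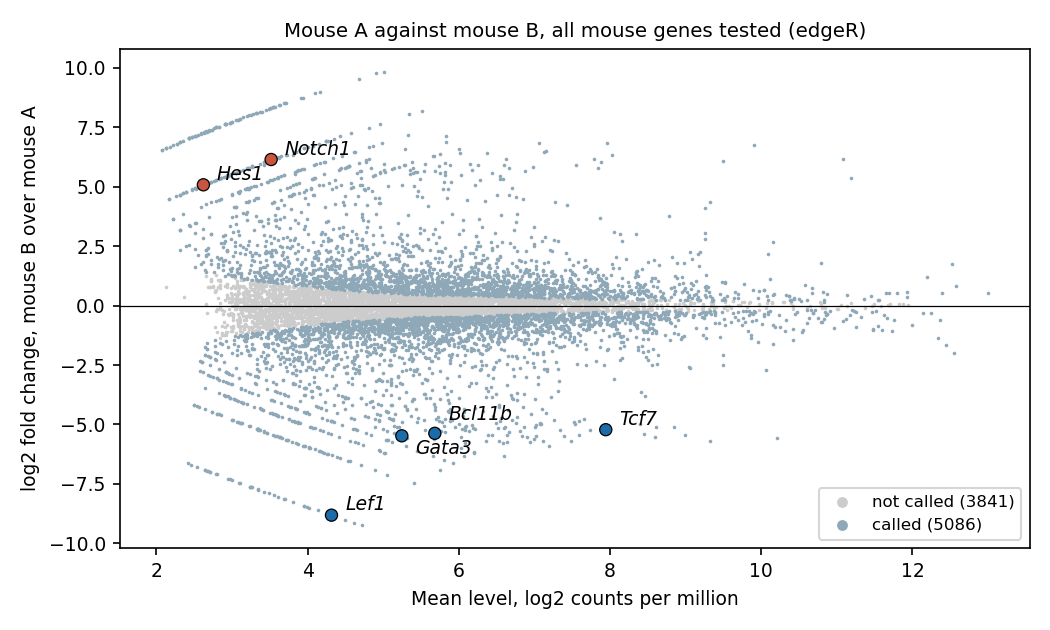
Log2 fold change of mouse B over mouse A against mean log2 CPM for the 8927 mouse genes tested with edgeR. The 6 tested members are circled and named, with Tcf7, Lef1, Gata3 and Bcl11b below 0 and Notch1 and Hes1 above 0, and the slanted rows of points are genes with 0 or few UMIs in 1 class.

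Detection in single cells was examined next, since a sum can be carried by a few cells. Tcf7 had a UMI in 42 of 50 mouse A cells (84%, 70.9% to 92.8%) and in 331 of 389 (85.1%, 81.2% to 88.5%). The share was 26% and 21.9% for Lef1, 42% and 36% for Gata3 and 52% and 39.6% for Bcl11b. Mouse A expression of Tcf7 was therefore spread over most cells, with a median of 5 UMIs per cell in the 150 library and 3 UMIs in the 300 library and maxima of 34 and 24 UMIs. In mouse B, Notch1 had a UMI in 6 of 35 cells (17.1%, 6.56% to 33.7%) and in 51 of 296 cells (17.2%, 13.1% to 22%). Hes1 had a UMI in 11.4% and 8.45% of mouse B cells, and Dtx1 in 2.86% and 4.05%. A mouse B cell with Notch1 usually had 1 UMI of it, in 44 of the 51 cells in the 300 library.

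Human cells should lack mouse transcripts and served as a measure of free RNA. They numbered 87 and 318, with median depths of 6383 and 3713.5 UMIs. Tcf7 had a UMI in 2.3% (0.28% to 8.06%) and 4.72% (2.66% to 7.66%) of them, and in 2.86% and 7.43% (4.72% to 11%) of mouse B cells. The intervals for Tcf7 in mouse B and in human cells overlapped in both libraries, so these shares do not show expression in mouse B. Gata3 and Bcl11b, at 1.35% and 2.03% of mouse B cells, against 1.26% and 0.94% of human cells in the 300 library, likewise had overlapping intervals. Counted as UMIs in the 300 library, Tcf7 was higher in mouse B. It had 34 UMIs in 296 mouse B cells (11.5 per 100 cells) and 15 in 318 human cells (4.72 per 100). Mouse B cells were also deeper there, with a median of 6566.5 UMIs. The 150 library had 1 Tcf7 UMI in mouse B and 2 in human cells. Whether free RNA accounts for the Tcf7 UMIs of mouse B was not tested. Hes1 and Dtx1 had 0 UMIs in all human cells, and Notch1 had 1 UMI in 87 and 0 UMIs in 318. In the 300 library the limit of 3 cells in 318 is 0.94%, below the lower bounds for all 3 Notch genes in mouse B (13.1%, 5.54% and 2.11%). In the 150 library the intervals of Notch1, Hes1 and Dtx1 in mouse B were wide, and only that of Notch1 began above the interval of the human cells (0.029% to 6.24%).

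Because depth differed between the groups, each cell was also thinned to 2000 UMIs, which left out 7 and 46 mouse A cells, 5 and 63 mouse B cells and 5 and 36 human cells. Tcf7 was then detected in 53.5% (37.7% to 68.8%) and 54.8% (49.4% to 60.2%) of mouse A cells. Bcl11b was detected in 18.6% and 19.5% and Lef1 in 6.98% and 6.12% of mouse A cells. Gata3 gave 23.3% (11.8% to 38.6%) and 10.8% (7.71% to 14.6%), and these intervals overlapped. In the 300 library, Notch1 fell to 3.86% (1.78% to 7.21%) of mouse B cells, Hes1 to 3.0% (1.22% to 6.09%) and Dtx1 to 1.72% (0.47% to 4.34%), against 0 of 343 mouse A cells for each of the 3 genes. In the 150 library, 1 of 30 mouse B cells kept a UMI of Notch1 and 0 of 30 kept one of Hes1 or Dtx1. Of the 3 genes in the 300 library, only the interval of Notch1 began above the upper bound of 1.30% in human cells, and those of Hes1 and Dtx1 overlapped it.

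**Figure D3:**
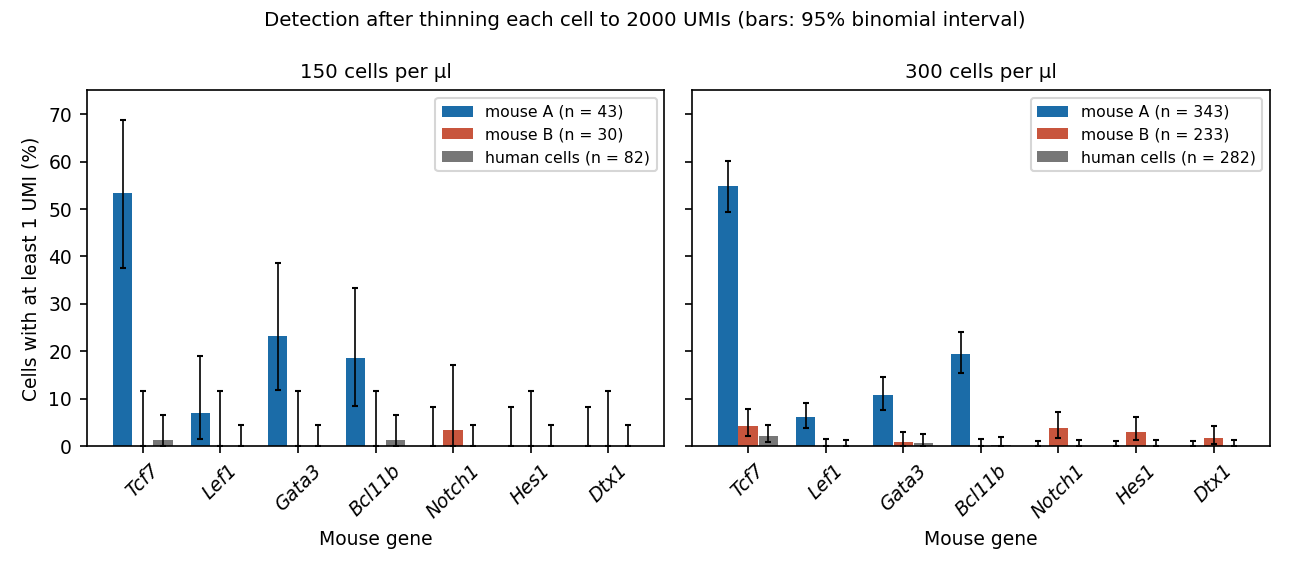
Percentage of cells with at least 1 UMI of each gene after every cell was thinned to 2000 UMIs, for mouse A, mouse B and human cells of each library, with 95% binomial intervals. Tcf7 is detected in 53.5% and 54.8% of mouse A cells, and Notch1, Hes1 and Dtx1 stay under 4% of mouse B cells.

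The number of UMIs of a gene in a cell depended on how deeply the cell was counted. In the 300 library, the share of mouse A cells with a Tcf7 UMI was 39.1% of 46 cells with 1000 to under 2000 UMIs, 75.8% of 66 cells with 2000 to under 5000, 92.5% of 160 cells with 5000 to under 10000 and 98.3% of 117 cells with at least 10000 UMIs. The level of Tcf7 over the same bins moved much less. It was 426 (281 to 620), 458 (378 to 550), 513 (473 to 556) and 406 (377 to 438) CPM. The last interval lay below that of the bin before it. The share of mouse B cells with a Notch1 UMI was 7.94%, 14.5%, 14.4% and 28.4% over the same bins of 63, 55, 90 and 88 cells. The level of Notch1 was 61.6 (20 to 144), 46.1 (21.1 to 87.6), 21.3 (11.7 to 35.8) and 23.9 (16.5 to 33.6) CPM on 5, 9, 14 and 33 UMIs. All of these intervals overlapped, so the values show no order by depth. The share of cells with a UMI was highest in the deepest cells for both genes. If every mouse A cell carried Tcf7 at the mean level, Poisson counting alone would leave 45.5 cells without a UMI in the 300 library, and 58 were observed. For Bcl11b the corresponding values were 205 and 235 cells. In mouse B, 244 cells without Notch1 would be left by counting alone and 245 were observed.

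**Figure D4:**
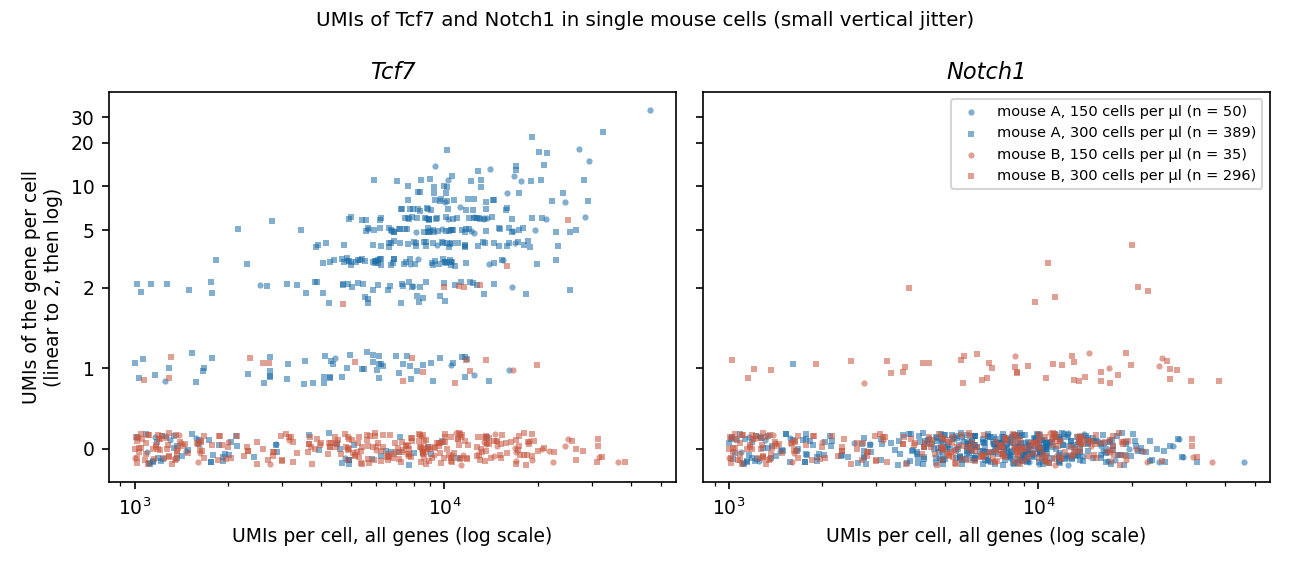
UMIs of Tcf7 (left) and Notch1 (right) in each mouse cell against all UMIs of that cell on a log scale, with the gene axis linear to 2 and logarithmic above. Mouse A cells carry up to 34 Tcf7 UMIs, whereas the Notch1 UMIs are in mouse B cells except for 1 UMI in 1 mouse A cell.

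The number of the 4 factors detected in a cell was counted next. At least 1 of them had a UMI in 46 of 50 mouse A cells and in 353 of 389 (92% and 90.7%). Mouse A cells most often had 2 of the 4 factors, in 19 and 146 cells, and all 4 were seen together in 5 and 17 cells. Bcl11b and Tcf7 shared 143 cells in the 300 library, which is 92.9% of the 154 cells with Bcl11b and 43.2% of the 331 cells with Tcf7. Over all mouse A cells of that library the shares were 85.1% for Tcf7 and 39.6% for Bcl11b. Gata3 was detected in 37.6% of the 85 cells with Lef1, against 36% of all mouse A cells. Bcl11b was detected in 51.8% of those 85 cells, against 39.6%. In the 150 library the cells with Lef1 numbered 13. Of these, 38.5% had Gata3, against 42% of all mouse A cells, and 76.9% had Bcl11b, against 52%. In the 300 library each factor was detected most often in the deepest mouse A cells. The shares for pairs of factors were not adjusted for depth and do not show joint expression. In mouse B, 1 of 35 and 28 of 296 cells had any factor (2.86% and 9.46%), compared with 4.60% and 6.92% of human cells. At least 1 of Notch1, Hes1 and Dtx1 had a UMI in 10 of 35 and 77 of 296 mouse B cells (28.6% and 26%), and 2 of them were seen together in 1 and 11 cells. Notch1 and Hes1 met in 7 of the 296 cells and Notch1 and Dtx1 in 4. Hes1 was thus in 13.7% of the 51 cells with Notch1, against 8.45% of all mouse B cells of that library. For Dtx1 the shares were 7.84% and 4.05%. These shares rest on few cells and were not adjusted for depth, and joint expression was not tested. A factor and a Notch gene were found in the same cell in 0 and 2 mouse A cells and in 1 and 8 mouse B cells.

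**Figure D5:**
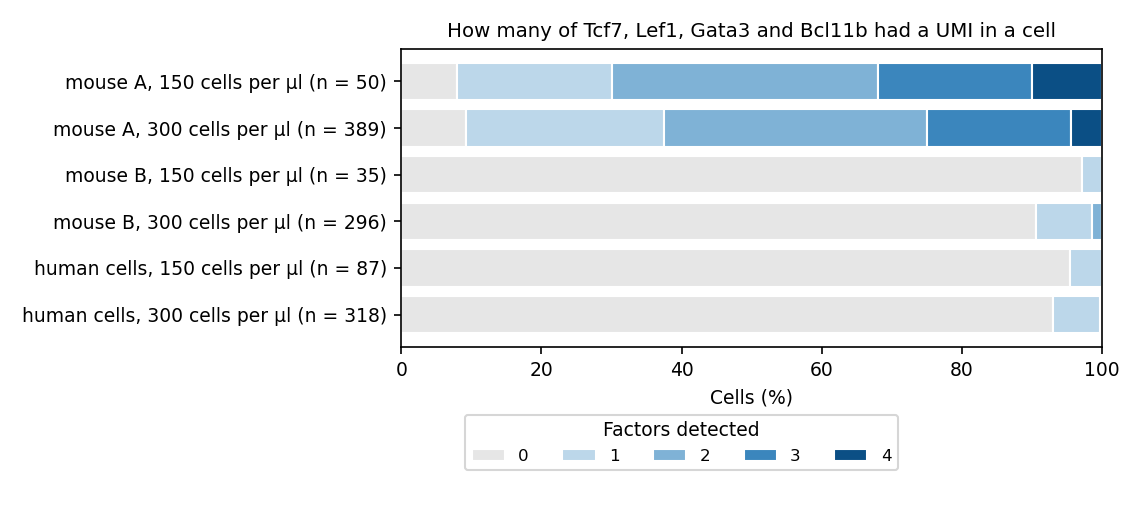
Percentage of cells in which 0, 1, 2, 3 or 4 of the factors Tcf7, Lef1, Gata3 and Bcl11b had a UMI, for mouse A, mouse B and human cells of each library. Over 90% of mouse A cells have at least 1 factor, and 90.5% to 97.1% of mouse B cells and 93.1% to 95.4% of human cells have 0.

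The factor UMIs in mouse B were not spread evenly over its cells. Of the 34 Tcf7 UMIs in the 300 library, found in 22 cells, 9 were in 2 cells. Those 2 cells drew 1.36% and 1.52% of their mouse UMIs from 343 genes called at least 16-fold higher in mouse A, the 7 members left out. The median of that share was 0.048% over the 268 mouse B cells without any factor and 3.16% over mouse A cells, whose lowest value was 1.46%. The highest share was 1.65% among the mouse B cells without any factor and 2.84% among the 20 with 1 or 2 Tcf7 UMIs. A raised share was thus not particular to the 2 cells. The 343 genes were called on these same cells. In all, 34 of the 296 mouse B cells had a share of at least 0.5%, and they held 16 of the 34 Tcf7 UMIs, 3 of 4 Gata3 UMIs and 3 of 6 Bcl11b UMIs. In the other 262 mouse B cells Tcf7 was at 8.20 CPM, Gata3 at 0.46 CPM and Bcl11b at 1.37 CPM, while Notch1 was at 26 CPM, Hes1 at 11.4 CPM and Dtx1 at 5.01 CPM. The limit of 0.5% was chosen after the values were seen. In the 150 library, 0 mouse B cells reached it. The 34 cells held 117674 mouse UMIs in all and the other 262 held 2195632. No doublet caller was run, and whether these barcodes held more than 1 cell or free RNA was not tested.

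Within mouse A, the deep clusters 1 and 3 both expressed the 4 factors. Tcf7 was at 469 and 466 CPM in clusters 1 and 3 in the 150 library and at 485 (454 to 517) and 403 (369 to 440) CPM in the 300 library. Bcl11b was lower in cluster 1 than in cluster 3 in both libraries, at 71.2 (44.6 to 108) against 116 (79.1 to 163) CPM, where the intervals overlapped, and at 76.3 (64.3 to 89.9) against 112 (94 to 131) CPM, where they did not. Gata3 lay between 58.2 and 67.2 CPM and Lef1 between 21.7 and 39 CPM in these clusters. The clusters were made from the same cells, without these genes, and the differences are given without a test. The shallow cluster 6 had Tcf7 at 212 and 373 CPM on 3 and 22 UMIs.

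Within mouse B, the deep clusters 2 and 4 had Notch1 at 15.3 and 8.0 CPM in the 150 library and at 22.9 (15.1 to 33.3) and 24.7 (16 to 36.4) CPM in the 300 library. All 4 Hes1 UMIs in the 150 library were in cluster 4, whereas in the 300 library cluster 2 had 11 and cluster 4 had 13 Hes1 UMIs (9.32 and 12.8 CPM). Dtx1 was divided evenly, with 6 UMIs in each in the 300 library. In the shallow cluster 5 in the 300 library, Notch1 was at 75.3 CPM (34.4 to 143) on 9 UMIs, with an interval that overlapped that of cluster 4 but not that of cluster 2, and Tcf7 was at 50.2 CPM on 6 UMIs. Lef1 had 0 UMIs in every cluster of mouse B.

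Levels were then compared between the loadings within each class, as log2 ratios of the 300 over the 150 library. With 1 library per loading these ratios have no replicate check and no test, and loading cannot be told apart from library. In mouse A the ratios were -0.036 for Tcf7 (-0.22 to 0.15), 0.40 for Lef1 (-0.36 to 1.26), 0.070 for Gata3 (-0.43 to 0.61) and -0.028 for Bcl11b (-0.45 to 0.42). All 4 intervals included 0, and that of Tcf7 was the narrowest. In mouse B the ratio was 1.02 for Notch1 (-0.19 to 2.52), 0.48 for Hes1 (-1.04 to 2.45) and 1.26 for Dtx1 (-1.50 to 6.67), so a difference in level was not detectable at this depth. Tcf7 in mouse B was the exception, with a log2 ratio of 2.76 (0.18 to 8.10) on 1 and 34 UMIs. Of the 34 UMIs, 16 were in the mouse B cells with a share of at least 0.5% from the 343 genes higher in mouse A. The 150 library had 0 such cells. In the other 262 cells of the 300 library Tcf7 was at 8.20 CPM, against 2.17 CPM on 1 UMI in the 150 library.

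The genes most like each member were sought over 10 sums of cells by cluster and library with at least 20000 UMIs, by Pearson's r of log2(CPM + 10) among genes with at least 100 UMIs. Notch1, Hes1 and Dtx1 were below that limit themselves, and their correlations rest on few UMIs. These sums share libraries and differ mainly by class, and the values are a description. Tcf7 was most like mm10_ENSMUSG00000031239 (r = 0.996) and mm10_ENSMUSG00000079853 (r = 0.996), and Notch1 was most like mm10_ENSMUSG00000007850 (r = 0.974) and mm10_ENSMUSG00000059149 (r = 0.968). Among the members, Tcf7 correlated at 0.98 with Gata3, 0.98 with Bcl11b and 0.95 with Lef1, which placed them 73rd, 95th and 279th of 7060 genes. Notch1 correlated at 0.77 with Hes1 and 0.37 with Dtx1, which placed them 474th and 2064th of 7061 genes, and at -0.72 with Lef1 and -0.59 with Tcf7.

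Barcodes near the limits that define mouse cells held UMIs of some of these genes, chiefly Tcf7. In the 300 library, 21 mouse barcodes with 900 to under 1000 UMIs held 4 Tcf7 UMIs and 22 with 1000 to under 1100 UMIs held 8. Barcodes with 80% to 90% mouse UMIs numbered 66 and held 28 Tcf7 UMIs and 1 Notch1 UMI, and the 38 with 90% to 95% held 13 and 6.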

How the data were processed

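The study's methods name Drop-seq tools for barcodes and UMIs and STAR for alignment to combined hg19 and mm10 genomes, and the submitters' processing notes give STAR as version 2.4.2a. The authors deposited 1 table of whole-number UMI counts per library (2000 barcodes and 2398956 UMIs at 150 cells per µl, 4000 and 8707135 at 300). The methods mention downsampling of reads, and whether these counts came from downsampled reads is not given in the sources used here. The deposited counts were used unchanged.

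The 7 genes, lists and tests were chosen with earlier results of these data known. Cells were log-scaled to 10000 UMIs, and 2000 variable genes without the members were centred, reduced to 15 components and clustered with Leiden at resolution 0.5 (leidenalg 0.10.2, Python 3.11.15). The classes were compared with edgeR 4.0.16 in R 4.3.3 (TMM, filterByExpr, threshold 0.05), with DESeq2 1.42.0 as an alternative. Both were run on counts summed per library and class, and the fit was tested on simulated data. All 7 members were to be named, with the genes most like them, of which at most 2 in each direction are given. The gene name table covered 0 of the 14740 mouse identifiers, so marker genes and lists of other pathway genes were not applied, and mouse sequences and coordinates were not used here.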

Additional observations from a re-analysis of the deposited data

Results flagged for a closer look

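Some of the genes were counted in barcodes that no comparison between the classes used. In barcodes of 200 to 600 UMIs, taken as free RNA, Tcf7 was at 375 CPM of mouse UMIs in the 150 library and 298 CPM in the 300 library. In those barcodes Gata3 was at 43.8 and 50.7 CPM, Bcl11b at 97.3 and 86.3 CPM and Notch1 at 17 and 19 CPM. Each exceeded the limit of 3 UMIs in both libraries. Mixed barcodes, with under 90% of UMIs from either species, had Tcf7 at 296 CPM on 5 UMIs and 322 CPM on 41 UMIs. Barcodes of 200 to 600 UMIs thus held genes of both mouse classes. Whether they were free of cells was not tested. Tcf7 in human cells was at 300.1 CPM of their mouse UMIs in the 300 library.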

How the results depend on the processing

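The direction of each of the 6 tested members was kept under all alternatives, and 5 of the 6 members stayed called under every one that gives a test. DESeq2 called 2013 genes against 5086 in edgeR, and Lef1 lost its call in DESeq2 (fitted log2 fold change -7.57, not a size, adjusted p = 0.21). The cause was not tested. Without the library block, 3488 genes were called and the 6 members stayed called. With 1 library left out no test is possible, and log2 ratios of the remaining sums, with a prior count added, were computed instead. They ranged from -7.51 to -4.95 for Tcf7, from -8.62 to -5.87 for Lef1 and from -7.11 to -5.22 for Gata3. For Bcl11b they ranged from -7.64 to -5.09, for Notch1 from 4.81 to 6.02 and for Hes1 from 4.25 to 4.90. Lef1 had 0 UMIs in the lower class in both libraries, and Gata3, Bcl11b, Notch1 and Hes1 had 0 there in the 150 library. Their ranges therefore depend on the prior count and are not sizes. Tcf7 had 1 UMI in mouse B in the 150 library, so its value of -7.51 is not a size either. Over the other alternatives the fitted value ranged from 4.41 to 8.31 for Notch1 and from 3.27 to 5.17 for Hes1. For Gata3 it ranged from -7.21 to -4.06. Notch1 was at 8.21 with at least 2000 UMIs per cell and at 8.16 without the shallow clusters. Both of these settings left Notch1 with 0 UMIs in mouse A. The ranges rest on 0 or few UMIs in the lower class and are not sizes. Across the other ways of clustering, 0 to 52 cells changed class. Unit-variance scaling and leaving out shallow clusters were chosen after seeing the data. The log2 ratio of the libraries for Tcf7 in mouse A was 0.16 with cells weighted equally. A fit on clusters named from markers and counts over lists of other pathway genes were not run, for want of symbols. Depth limits Dtx1 most, with 13 UMIs in mouse B.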
